A study of Mus musculus with 2 samples.

Results

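The 41 genes described here encode enzymes that remove methyl groups from histones, DNA or RNA, or that add acetyl groups to histones or take them off. They were listed by name for what they encode, not by a measured value, though with earlier results of these data known, and were found by symbol among 55487 gene IDs: 22 demethylases or relatives of demethylases, 10 acetyltransferases and 9 deacetylases. Sorted small peritoneal macrophages, a macrophage type of the abdominal cavity, were sequenced from male SWISS mice aged 5 weeks in which endotoxemia had been caused by 20 mg/kg lipopolysaccharide (LPS) from Escherichia coli, given intraperitoneally. The group called LPS was 1 library from 102283 cells pooled over 7 mice. The group called LPS+LCC-12 was 1 library from 66967 cells pooled over 8 mice that were also injected with 0.3 mg/kg LCC-12, a compound known to target mitochondrial copper, 6 h after LPS. Mice of both groups had 30 mL/kg saline subcutaneously at 6 h, and cells were taken at 22 h. The labels name no vehicle injection for the LPS group, and mice without LPS were not analysed here.

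These enzymes set and erase chemical marks on chromatin and on messenger RNA. The demethylases with a Jumonji C (JmjC) domain, the TET enzymes and the m6A demethylases use iron, oxygen and alpha-ketoglutarate, a product of the citric acid cycle, whereas Kdm1a and Kdm1b use FAD. Acetyltransferases take their acetyl group from acetyl-CoA, and the deacetylases of this list are the zinc-dependent kind. In macrophages, enzymes of all these groups are known to act on inflammatory genes after LPS, and Kdm6b is known as a gene that LPS induces. RNA counts measure neither the amount nor the activity of an enzyme.

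The depth was 50618409 counts for LPS and 47721888 for LPS+LCC-12. As each group is a single library, nothing could be tested and no p-value is given; every difference is between these libraries and has no replicate check. Levels are given as counts, as CPM (counts for every 1000000 counts of the scaled library size), or as CPM per kb of exon, the scale used to compare the levels of different genes. The log2 ratio is LPS+LCC-12 over LPS, and the interval after it is an exact 95% interval that covers counting error only. A gene was read when either library held 50 or more counts of it, and was called lower or higher when it differed by at least 2-fold. The macrophage genes Adgre1, which encodes F4/80, and Csf1r, the CSF-1 receptor, had 41890 and 22001 counts in the first library and 39897 and 31384 in the second. Ccr2, a receptor of monocytes and small peritoneal macrophages, had 18229 and 17434 counts. Gata6, which directs the identity of large peritoneal macrophages, was also present with 529 and 720 counts. All 11 general macrophage markers were within 2-fold, with a median log2 ratio of -0.02. Markers of other cells were not level between the libraries. Of 16 neutrophil markers 14 could be read, 10 of these were at least 2-fold lower with LCC-12, and their summed level went from 13807 to 5437 CPM; Elane, a protease gene of neutrophil precursors, had 0 and 3 counts. Mast cell, mesothelial and fibroblast markers were also lower, with medians of -1.54, -3.40 and -2.39 over 7, 4 and 6 genes. Their summed levels with LPS were 214, 7.81 and 24.6 CPM. Most of the mast cell sum was Hdc alone, at 197 CPM, and the next gene, Kit, had 6.33 CPM. For B and plasma cells, 9 markers could be read, none was past 2-fold and their median was 0.16. Of 10 small peritoneal macrophage markers 9 were at least 2-fold higher, and so were 7 of 12 of large peritoneal macrophages. The part of these markers in the ratios given here was not tested. In a sum over cells, fewer cells of a type and less RNA per cell cannot be told apart.

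Of the 41 genes, 39 could be read. Tet2 was the 1 gene at least 2-fold lower with LCC-12, no gene was higher by that much, and the remaining 38 were within 2-fold. Over the whole series, 13482 genes could be read, of which 6.65% were at least 2-fold lower and 4.01% at least 2-fold higher, and among 11220 protein-coding genes these shares were 4.46% and 3.81%. The count of 1 among 39 is therefore no higher than the background. With the main scaling (TMM, which sets the libraries level by a trimmed mean of their gene ratios) the smaller differences were mostly on 1 side. The log2 ratio was below 0 for 30 of the 39, against 47.6% of all genes that could be read. The interval lay wholly below 0 for 19 and wholly above 0 for 6, against 32.9% and 36.5% of all genes. The side of the small ratios depended on the scaling: with total counts 22 of 39 were below 0 against 43.6% of all genes, and with totals without the most abundant genes 20 of 39 against 41.5%. Under both of those scalings 16 intervals lay wholly below 0 and 9 wholly above 0, against 29.4% and 40.7% of all genes with total counts and 27.7% and 43.1% with totals without the most abundant genes. With DESeq2 size factors the numbers were 21 and 6, against 34.5% of all genes on either side, and with the upper quartile 23 and 5, against 35.8% and 32.7%. The median log2 ratio was -0.06 over the 39 genes and 0.02 over all genes that could be read.

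**Figure D1:**
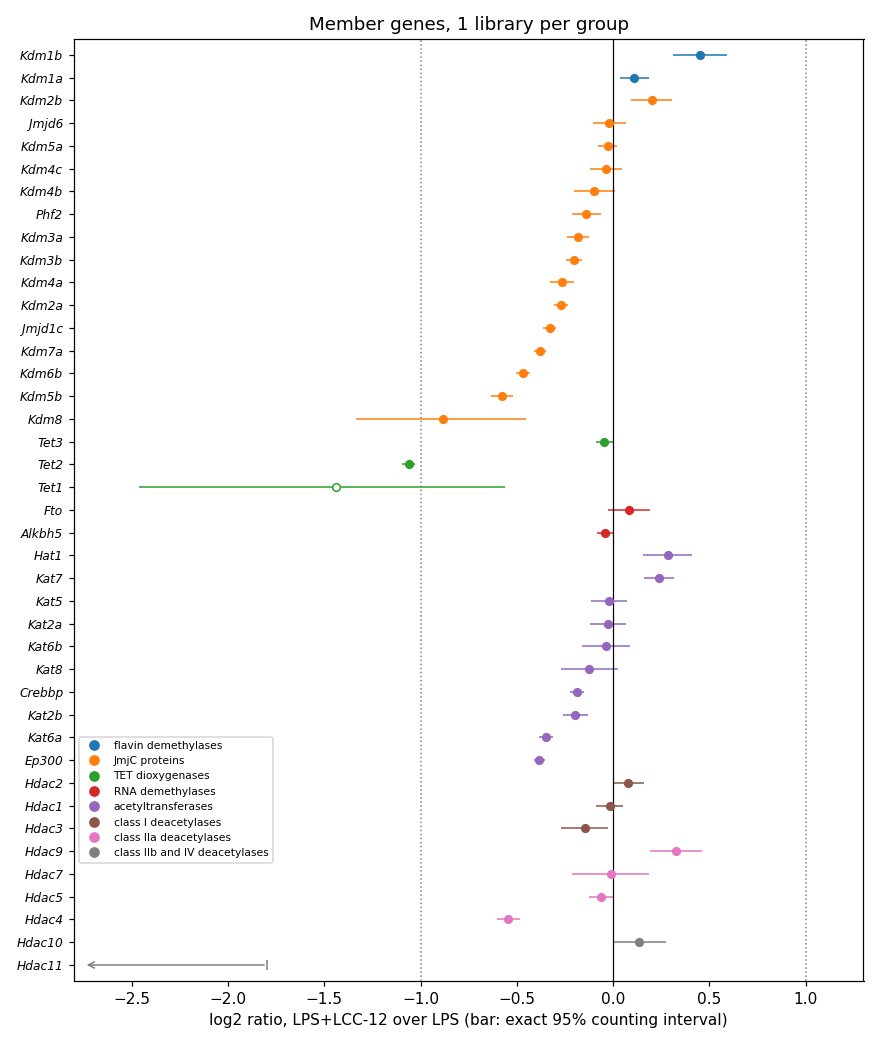
Log2 ratio of LPS+LCC-12 over LPS for each of the 41 genes (points), grouped by enzyme family in colours, with exact 95% counting intervals (bars) and dotted lines at 2-fold. The open circle is Tet1, which was under 50 counts, the arrow is Hdac11, which had 0 counts with LCC-12 and for which only the upper bound of -1.80 is drawn, and Tet2 is the 1 filled point past the lower dotted line.

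The most strongly counted members were all below 0. All 8 members that reached 10000 counts in either library (Tet2, Ep300, Kdm7a, Jmjd1c, Kat6a, Crebbp, Kdm6b and Kdm2a) were lower with LCC-12. Their median log2 ratio was -0.36. The class was set by the library with more counts, which was LPS for each of them. Kdm6b, with 13709 and 9601 counts, reached 10000 only there, so its place in the class rests on the library where it was higher. Of all 995 genes counted that deeply 58.4% were below 0, and their median was -0.07. The 26 members with 1000 to 10000 counts had a median of -0.04, and all 5541 such genes 0.04. Of these 26 members 19 were also below 0 with the main scaling, against 44.6% of all such genes. Over the 39 genes the log2 ratio had a Spearman correlation of -0.63 with the count in the library with more. With the exon length the correlation was -0.36. Over all genes that could be read these were 0.01 and 0.07. These correlations are across genes of the same 2 libraries and describe the genes only.

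**Figure D2:**
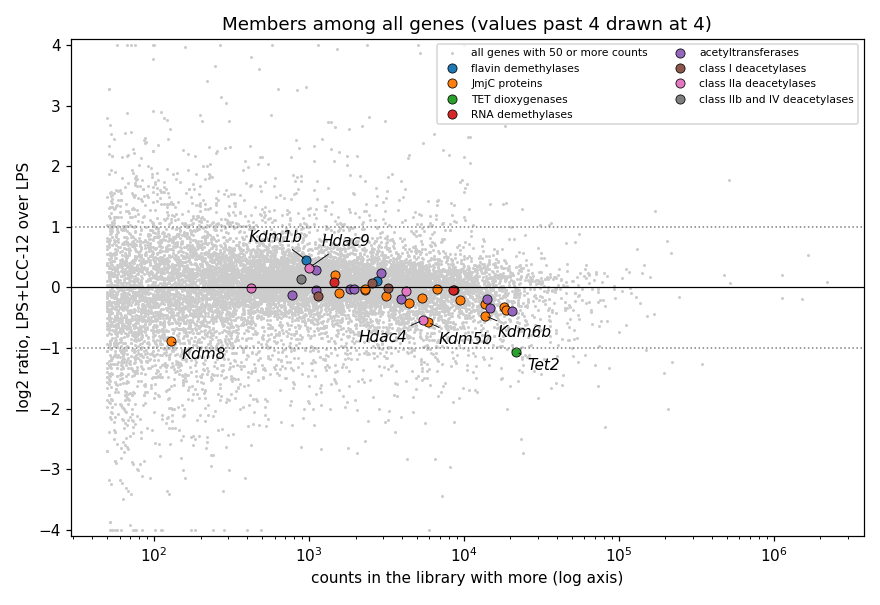
Log2 ratio (vertical axis) against the counts in the library with more (horizontal log axis) for 13482 genes with 50 or more counts (grey) and the 39 enzyme genes that could be read (coloured by family). Tet2 lies past the lower 2-fold line at 21796 counts, and the other enzyme genes lie inside both dotted 2-fold lines.

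Per kb of exon the genes covered a wide range, from 0.052 CPM per kb for Tet1 to 39.5 for Kdm6b in the LPS library. The order with LPS began with Kdm6b, Kdm7a (37.4), Kat6a (32.1), Ep300 (28.9), Alkbh5 (28.3) and Tet2 (25.9). With LCC-12 it began with Kdm7a (28.8), Kdm6b (28.5), Alkbh5 (27.5), Kat6a (25.2) and Ep300 (22.2), and Tet2 moved from rank 6 to rank 12 with 12.4. The level of Kdm6b was 1.06 times that of Kdm7a with LPS and 0.992 times with LCC-12, and without replicates no order of neighbours was tested. Below 3 CPM per kb in the LPS library were Kdm1b, Kdm2b, Fto, Kat6b, Hdac7, Hdac9, Kdm8, Hdac11 and Tet1.

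**Figure D3:**
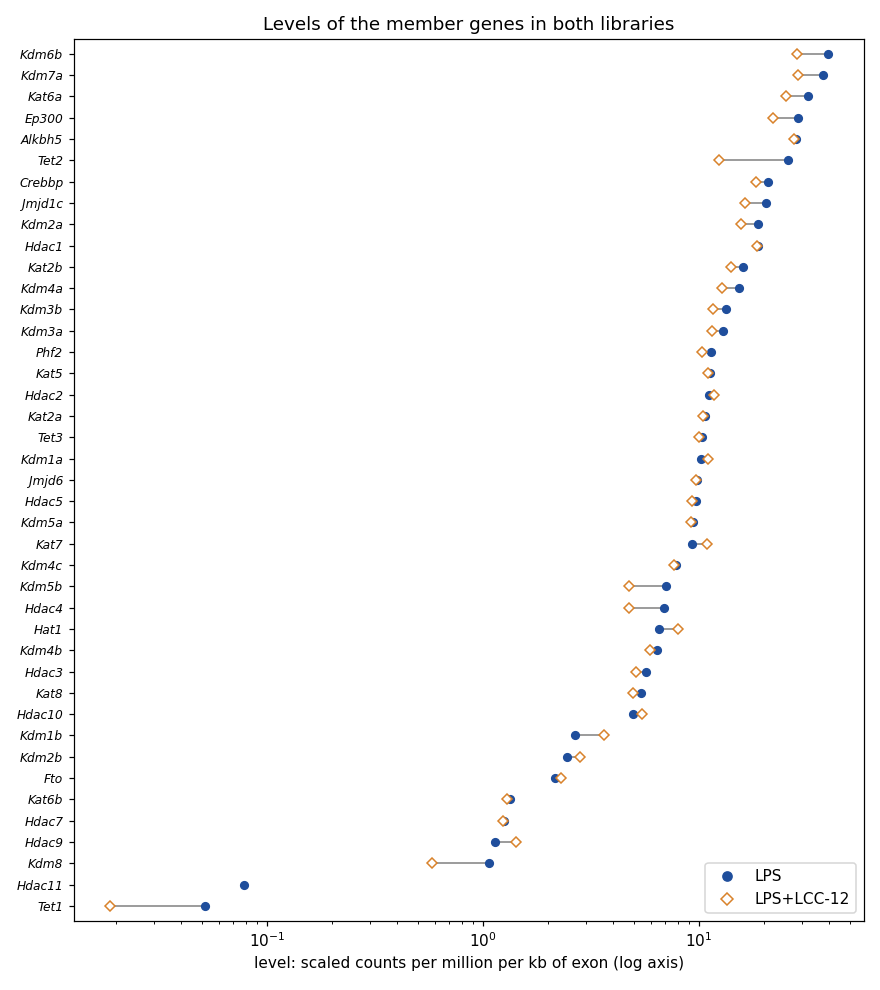
Level of each gene in CPM per kb of exon (log axis) in the LPS library (filled circles) and the LPS+LCC-12 library (open diamonds), in order of the LPS level. Kdm6b and Kdm7a lead both libraries, Tet2 has the widest gap among the genes above 2 CPM per kb, and Hdac11 has no diamond because its count with LCC-12 was 0.

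The TET enzymes oxidise 5-methylcytosine and so start the removal of DNA methylation. Tet2, which is also known for mutations in myeloid disease, lies on chromosome 3 from 133463679 to 133545139 on the minus strand (GRCm38). It had 21796 counts in the LPS library against 10109 after LCC-12 (436 and 209 CPM). Tet2 was 2.09-fold lower (2.04 to 2.14; log2 ratio -1.06, -1.10 to -1.03). Tet3 had 8622 and 8091 counts (log2 ratio -0.05, -0.09 to -0.002), and its sign turned with totals without the most abundant genes. Tet2 therefore stood apart from Tet3 in these libraries: the ratio of Tet2 differed from that of Tet3 by -1.02 on the log2 scale (-1.07 to -0.96), a value that no scaling can move. Per kb, Tet2 made up 71.3% of the summed TET level with LPS and 55.2% with LCC-12. Tet1 was hardly detected, at 40 and 14 counts (log2 ratio -1.44, -2.46 to -0.56), below the minimum. The neutrophil markers lower in the same library had a median log2 ratio of -1.23 over the 14 that could be read, and the monocyte markers -0.87 over 10. The monocyte markers were mixed: 5 were at least 2-fold lower, Fn1 was 3.42-fold higher, and their summed level went from 9030 to 14374 CPM. The part of either list in the Tet2 difference was not tested. The antisense gene Gm42567, which shares 43 bases of exon with Tet2, had 38 and 1 counts, too few to move the Tet2 values.

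The JmjC proteins were the largest family and also lay mostly below 0. Of 15 genes 14 had a ratio below 0, beside 47.6% of all genes, and 10 had the whole interval below 0, beside 32.9%. With total counts 11 of the 15 were below 0, beside 43.6% of all genes, and 10 still had the whole interval there. The median log2 ratio was -0.20. None was past 2-fold. Their counts summed to 106796 with LPS and 84843 with LCC-12, or 2138 and 1754 CPM. Kdm6b, which removes the repressive methylation of histone H3 lysine 27, had 13709 and 9601 counts (log2 ratio -0.47, -0.51 to -0.43). Kdm7a, a demethylase of repressive H3 marks, had 18786 and 13994 counts (log2 ratio -0.38, -0.41 to -0.35). Both were the highest genes of the list per kb, and both were lower with LCC-12. The antisense gene 4930599N23Rik, which overlaps 2.85% of the Kdm7a exons, had 348 and 106 counts.

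Kdm5a and Kdm5b, which both remove the activating methylation of H3 lysine 4, had different ratios. Kdm5b had 5846 and 3795 counts (log2 ratio -0.58, -0.64 to -0.52), the lowest of the JmjC genes except Kdm8. Kdm5a had 6663 and 6331 counts (log2 ratio -0.03, -0.08 to 0.02), and its sign turned with both total-count scalings. The difference between Kdm5a and Kdm5b was 0.55 (0.47 to 0.63). Kdm8, a JmjC oxygenase, had only 128 and 67 counts, 1.84-fold lower, and its interval of 1.37-fold to 2.53-fold reached past 2-fold.

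The H3 lysine 9 demethylases of the Kdm3 group were all below 0. Jmjd1c had 18269 and 14077 counts (log2 ratio -0.33, -0.36 to -0.30). Kdm3a, also known as a hypoxia-responsive gene, had 5343 and 4566 counts (-0.18, -0.24 to -0.12), and Kdm3b had 9375 and 7890 (-0.20, -0.25 to -0.16). The interval of the difference between Kdm3a and Kdm3b ran from -0.05 to 0.09. Of the Kdm4 demethylases, which act on H3 lysines 9 and 36, Kdm4a had 4443 and 3581 counts (-0.27), Kdm4b 1560 and 1412 (-0.10) and Kdm4c 2289 and 2161 (-0.04), and the intervals of Kdm4b and Kdm4c included 0. The ratio of Kdm4c changed sign with both total-count scalings.

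Kdm2a and Kdm2b, which bind unmethylated CpG islands, lay on different sides of 0. Kdm2a had 13621 and 10936 counts (log2 ratio -0.27, -0.31 to -0.23). Kdm2b, a part of a Polycomb complex, had 1325 and 1474 counts (0.20, 0.09 to 0.31) and was the 1 JmjC gene above 0. The difference between Kdm2a and Kdm2b was -0.47 (-0.58 to -0.36). Kdm2b shares 5.77% of its exon length with Rnf34 on the other strand, which had 2771 and 1397 counts, and the use of strand in counting is not given in the sources used here. Phf2, an H3 lysine 9 demethylase, had 3130 and 2753 counts (-0.14, -0.21 to -0.07). Jmjd6, a lysyl hydroxylase, had 2309 and 2205 (-0.02, -0.11 to 0.06), a sign that turned with both total-count scalings.

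The FAD-dependent demethylases were both above 0. Kdm1a, known as LSD1 and as the catalytic subunit of the CoREST complex, had 2640 and 2761 counts (log2 ratio 0.11, 0.03 to 0.19). Kdm1b, its paralogue, had 729 and 965 counts (0.45, 0.31 to 0.59), the highest ratio of all 41 genes at 1.37-fold. Kdm1b shares 9.19% of its exon length with Dek on the other strand, which had 5863 and 6385 counts. The intervals of both RNA demethylases, which remove m6A from messenger RNA, included 0. Alkbh5 had 8463 and 7972 counts (-0.04, -0.08 to 0.00) and Fto 1408 and 1444 (0.08, -0.02 to 0.19). The sign of Alkbh5 turned with totals without the most abundant genes.

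Among the 10 acetyltransferases none was past 2-fold and the median log2 ratio was -0.08. Below 0 were 8 of them, beside 47.6% of all genes, but with total counts only 5, beside 43.6%. The largest negative ratios were those of the general coactivator Ep300, which encodes p300, and of Kat6a, also called MOZ. Ep300 had 20601 and 15301 counts (412.5 and 316 CPM; log2 ratio -0.38, -0.41 to -0.35). Kat6a had 14716 and 11206 counts (-0.35, -0.38 to -0.31). Crebbp, the paralogue of Ep300, had 14177 and 12046 counts (-0.19, -0.22 to -0.15). Ep300 thus had the lower ratio of the pair, by -0.19 (-0.24 to -0.15) on the log2 scale. Per kb it had the higher level in both libraries, and its share of the level of both was 58.0% with LPS and 54.6% with LCC-12. Kat6b, the paralogue of Kat6a, had 1116 and 1053 counts (-0.04, -0.16 to 0.09), with a sign that turned with both total-count scalings. The difference between Kat6a and Kat6b was -0.31 (-0.44 to -0.18). Per kb, Kat6a exceeded Kat6b 24.2-fold with LPS and 19.5-fold with LCC-12.

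Of the GCN5-type acetyltransferases of the SAGA and ATAC complexes, Kat2a had 1852 and 1760 counts (log2 ratio -0.03, -0.12 to 0.07) and Kat2b 3902 and 3300 (-0.20, -0.26 to -0.13). The MYST family members Kat5 (TIP60) and Kat8 (MOF) acetylate histone H4, and their intervals included 0. Kat5 had 1968 and 1877 counts (-0.02, -0.11 to 0.07) and Kat8 777 and 691 (-0.12, -0.27 to 0.03). Kat5 shares 12.1% of its exon length with Rnaseh2c on the other strand, which had 502 and 868 counts. The signs of Kat2a and Kat5 turned with both total-count scalings. The remaining 2 acetyltransferases were above 0. Kat7 (HBO1), known for the licensing of replication origins, had 2560 and 2925 counts (0.24, 0.16 to 0.31), and Hat1, which acetylates newly made histone H4, had 943 and 1112 (0.28, 0.16 to 0.41). Proliferation markers in the same libraries had a median of 0.30 over 10 genes, with 2 of them at least 2-fold higher; their part in these ratios was not tested.

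Of 9 deacetylases 8 could be read, and the largest differences were those of Hdac4 and Hdac9. Among the 8, none was past 2-fold, and the median log2 ratio was -0.02. The class I enzymes are the catalytic subunits of nuclear corepressor complexes. Hdac1 had 3246 and 3104 counts (-0.02, -0.09 to 0.05, with a sign that turned with both total-count scalings). Hdac2 had 2482 and 2537 (0.08, -0.003 to 0.16) and Hdac3, the enzyme of the NCoR complexes, 1148 and 1003 (-0.15, -0.27 to -0.03). Per kb, Hdac1 made up 52.9% of the class I level with LPS and 52.5% with LCC-12.

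The class IIa enzymes, which shuttle between nucleus and cytoplasm and bind MEF2 factors, differed among themselves. Hdac4 had 5451 and 3622 counts (log2 ratio -0.54, -0.61 to -0.48). Hdac5 had 4263 and 3949 (-0.06, -0.13 to -0.001). Hdac7 had 424 and 407 (-0.01, -0.21 to 0.19, with a sign that turned with both total-count scalings). Hdac9 had 830 and 1007 (0.32, 0.19 to 0.46). Hdac4 was thus lower relative to Hdac5 by -0.48 (-0.57 to -0.39), and per kb its share of the class IIa level went from 36.3% to 28.4%, while Hdac5, the highest of the class per kb, went from 51.1% to 55.7%. The lincRNA Gm26720 overlaps 22.4% of the Hdac4 exons on the other strand but had only 7 and 5 counts. Hdac10, a polyamine deacetylase, had 836 and 889 counts (0.13, -0.003 to 0.27). Hdac11, which removes fatty acyl groups, had 15 counts with LPS and 0 with LCC-12. That is 4.84-fold lower against the floor of 3 counts in the LCC-12 library, while the counting interval allows a difference as small as 3.47-fold.

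In all, 13 pairs of related genes were compared within the list, and 7 have been described. In the other pairs, Kdm1b exceeded Kdm1a in ratio (difference -0.34 for Kdm1a minus Kdm1b, -0.50 to -0.18), and Kat2a exceeded Kat2b (0.17, 0.05 to 0.28). Hdac9 exceeded Hdac7 in ratio (0.34, 0.10 to 0.58), and Kdm6b lay below Kdm7a (-0.09, -0.14 to -0.04). Fto exceeded Alkbh5 in ratio (0.12, 0.01 to 0.24), and for Hdac1 and Hdac2 the interval included 0 (-0.20 to 0.01). The pairs were chosen with the counts known, and the intervals do not cover variation between pools of mice.

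Stretches before the transcription starts of members with the largest ratios are shown, so that their base composition can be compared. Only genes with a single promoter entry and a long enough stretch free of exons were printed. Hdac9 and Hat1, which were also among the highest ratios, did not meet these conditions and are left out. They are from RefSeq on GRCm38.p6, read 5′ to 3′ on the strand of the gene and ending at the RefSeq start, 7 bases before it for Kdm5b, and parts that GENCODE marks as exon were left out. Tet2 (chr3:133544391-133544640, minus strand), Kdm8 (chr7:125444370-125444619, plus), Kdm5b (chr1:134559928-134560170, plus) and Hdac4 (chr1:92180342-92180591, minus) were lower with LCC-12, and Kdm1b (chr13:47043344-47043498, plus) was higher. Capitals mark matches on either strand to the GC box, spelled GGGCGG, and to the other common promoter motif that is named for its letters, CCAAT.
Tet2: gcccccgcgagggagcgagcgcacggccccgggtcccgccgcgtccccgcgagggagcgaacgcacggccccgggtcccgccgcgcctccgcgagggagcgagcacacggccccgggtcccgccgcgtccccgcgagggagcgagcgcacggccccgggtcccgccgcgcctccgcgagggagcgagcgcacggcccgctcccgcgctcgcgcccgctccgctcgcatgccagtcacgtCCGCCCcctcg
Kdm8: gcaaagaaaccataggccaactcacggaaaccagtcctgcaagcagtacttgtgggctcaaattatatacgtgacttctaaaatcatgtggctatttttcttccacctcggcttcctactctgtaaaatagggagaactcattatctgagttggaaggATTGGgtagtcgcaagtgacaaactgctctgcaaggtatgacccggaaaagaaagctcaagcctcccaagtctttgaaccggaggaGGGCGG
Kdm5b: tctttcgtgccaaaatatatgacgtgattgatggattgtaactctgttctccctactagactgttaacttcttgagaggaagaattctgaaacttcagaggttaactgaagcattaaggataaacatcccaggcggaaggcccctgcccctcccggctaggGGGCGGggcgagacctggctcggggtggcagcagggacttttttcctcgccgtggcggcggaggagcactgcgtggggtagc
Hdac4: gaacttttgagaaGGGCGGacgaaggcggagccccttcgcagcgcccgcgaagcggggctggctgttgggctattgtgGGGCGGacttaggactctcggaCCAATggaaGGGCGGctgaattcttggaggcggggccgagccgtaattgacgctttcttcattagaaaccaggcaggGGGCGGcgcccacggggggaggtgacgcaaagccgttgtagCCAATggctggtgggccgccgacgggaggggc
Kdm1b: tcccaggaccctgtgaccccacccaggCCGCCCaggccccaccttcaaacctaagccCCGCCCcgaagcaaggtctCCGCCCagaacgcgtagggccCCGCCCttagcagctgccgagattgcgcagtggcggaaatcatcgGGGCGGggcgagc

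The Tet2 stretch was 83.6% G or C with 51 CpG dinucleotides and 1 GC box, and that of Kdm8 46.8% with 7 CpG. Hdac4 had 4 GC boxes and 2 CCAAT boxes, and Kdm1b 5 GC boxes. Composition therefore varied among the lower genes as well as between them and Kdm1b, the only higher gene printed. Of the higher genes left out, Hdac9 had entries of 43.6% and 44.4% G or C, and Hat1 had 67.6%. Promoter entries were present for 32 of the 41 genes, 47 entries in all. Their 250 bases before the start held a median of 61.2% G or C and 18 CpG, against 52.4% and 6 over all 32851 entries. The full set covers 27025 genes, read here or not, and was not matched to the members in expression. A GC box was in 28 of the 47, or 59.6%, against 32.7% of all entries, and a CCAAT box in 18, or 38.3%, against 33.8%. GAAANNGAA, the core of an interferon response motif, was in 3 of them (Hdac9, Kat5 and Kat8; 7.13% of all entries), and GGNNTTTCC, the core of an NF-kB motif, in 3 (Alkbh5, Hdac9 and Tet1; 4.93%). TGACGTCA, a cAMP response motif, was in 0 (1.55% of all entries), CCGGAAG, an ETS motif, in 4 (6.91%) and TATAAA in 1 (12.4%). Entries of 1 gene can overlap, and a match of letters is not a measured binding site.

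Genes that work with these enzymes were taken from 9 lists of 200 genes, chosen with earlier results of these data known. Of 192 that could be read, 2 were at least 2-fold lower and 4 higher, beside the 6.65% and 4.01% of all genes. Their median log2 ratio was 0.06, with 117 above 0 and 75 below, beside 47.6% of all genes below 0 with the same scaling. These counts were not repeated with the other scalings. Other demethylases and dioxygenases had a median of 0.20 over 20 genes. Among them Hr, a JmjC corepressor of nuclear receptors, had 362 and 1074 counts (log2 ratio 1.61, 1.44 to 1.79), and Alkbh7, a mitochondrial dioxygenase, 48 and 98 (1.07, 0.56 to 1.60). The acetyltransferases outside the main list had a median of 0.18 over 17 genes, none past 2-fold. The nuclear receptor coactivator Ncoa3 had 21532 and 27123 counts (0.38, 0.35 to 0.41), whereas Ncoa2 had 6599 and 5066 (-0.34, -0.39 to -0.28). The remaining deacetylases, sirtuins included, had a median of 0.02 over 9 genes, with 2793 and 2916 counts for Sirt2 and 3108 and 2754 for Sirt7.

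The complexes that carry the enzymes were near the median of all genes. Subunits of deacetylase corepressor complexes had a median log2 ratio of 0.04 over 36 genes, with 1 past 2-fold: Rcor2, a CoREST paralogue, had 153 and 48 counts (-1.62, -2.13 to -1.15). Subunits of acetyltransferase complexes had a median of 0.03 over 48 genes, none past 2-fold, and Ep400 and Brpf1 had log2 ratios of 0.14 and 0.02. Readers of acetyl-lysine had a median of 0.01 over 21 genes, with Cecr2, a bromodomain protein, at 32 and 121 counts (1.95, 1.39 to 2.57). Partners of DNA demethylation had a median of 0.21 over 10 genes, none past 2-fold. Ogt, a glycosyltransferase that binds TET proteins, had 10886 and 10653 counts (0.02, -0.02 to 0.05), and Idh1, which makes alpha-ketoglutarate in the cytosol, had 2818 and 5367 (0.98, 0.91 to 1.04). The m6A writers and readers had a median of -0.10 over 17 genes, with Igf2bp1 at 54 and 13 counts (-1.97, -3.01 to -1.12). MEF2 factors, kinases of the class IIa deacetylases and 14-3-3 genes had a median of 0.11 over 14 genes. Mef2c, a transcription factor that class IIa deacetylases repress, had 799 and 1831 counts (1.24, 1.12 to 1.36).

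**Figure D4:**
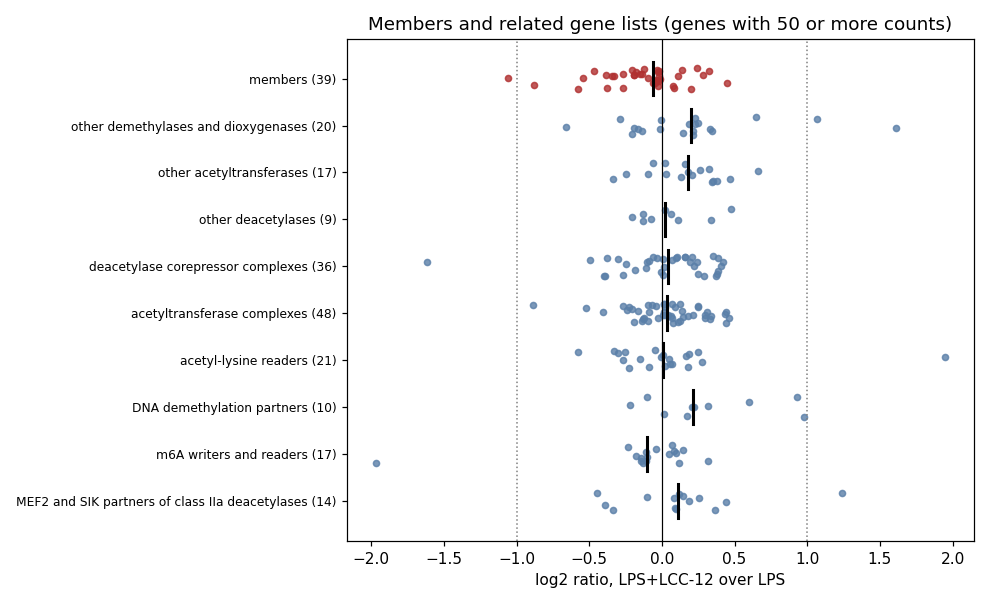
Log2 ratio of LPS+LCC-12 over LPS (horizontal axis) for the enzyme genes (red) and for genes of 9 related lists (blue), each point 1 gene with 50 or more counts, with the number of genes in brackets, the list median as a black bar and dotted lines at 2-fold. Vertical scatter within a list has no meaning; the enzyme genes have a median of -0.06 and the related lists medians from -0.10 to 0.21.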

How the data were processed

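The deposited table holds raw read counts per gene, whole numbers that the authors did not normalize, in 1 column per library. Reads had been aligned with STAR to mm10, per the submitters' processing notes; which counter and annotation were used, and whether strand was, is not given in the sources used here. The labels give polyA RNA as the molecule, but their protocol describes total RNA depleted of ribosomal RNA, and which applies was not settled; total RNA would include unspliced and non-polyadenylated transcripts. Each column was matched to its group through the code in the label of the library. Symbols, exon lengths (union of exons) and overlaps came from GENCODE M21 on GRCm38, to which 55394 of 55487 IDs matched. TMM scaling came from edgeR 4.0.16 under R 4.3.3, and 0.5 was added to each count in proportion to library size. Intervals are Clopper-Pearson at 95%. The calculation was tried on simulated counts that held counting error only, so this checks the arithmetic and not variation between pools of mice. Scaling by totals, by DESeq2 1.42.0 size factors and others were alternatives. All 41 genes are named; of each related list those past 2-fold are named (up to 4), or the 2 with the most counts. The members, the lists and the alternatives were chosen with earlier results of these data known.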

Additional observations from a re-analysis of the deposited data

How the results depend on the processing

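No paired analysis was possible because each group is 1 library. Alternative values were taken for the counts and medians of the genes. Of these, 104 were within 1.5 times the reported count or, for a median, between the median bounds of its genes' intervals, and 10 were not. Some could not move, such as the mean in place of the median for families with 1 or 2 genes read. No reported median was past 2-fold, so none could turn a called direction, but some medians near 0 changed sign. The median of the RNA demethylases went from 0.02 to -0.01 with the upper quartile. With total counts, that of the class I deacetylases went from -0.02 to 0.02 and that of class IIa from -0.04 to 0.0003. The number of genes at least 2-fold lower was 3 with a minimum of 10 counts or of 1 count, which added Tet1 and Hdac11, 2 with a 1.5-fold limit, which added Kdm8, and 0 with a 3-fold limit. With either lower minimum the TET median was -1.06, the value of Tet2 itself. That of Hdac10 and Hdac11 was -2.40, midway between 0.13 and -4.93. The Hdac11 value rests on 0.5 added to a count of 0, and with 5 added counts it was -1.98. With totals that leave out mitochondrial and the most abundant genes, the JmjC median was -0.14 and the TET median, over Tet2 and Tet3 only, -0.49. Over 6 alternatives of scaling, added counts and depth, 31 of the 41 genes kept their sign, Tet2 among them, and 10 did not. The log2 ratio of Tet2 ran from -1.096 to -1.002 over them, the latter barely past the 2-fold limit. The median of all genes moved by at most 0.06 on the log2 scale from its value with TMM. Between scalings it ran from -0.01 with the upper quartile to 0.08 with totals without mitochondrial and the most abundant genes. Counts of 15 or fewer, as for Hdac11, limit what can be read.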
